A study of Homo sapiens with 28 samples.

Results

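The genes described here are the nucleoporins, which build the nuclear pore, and the receptors that carry cargo through it. They were chosen by symbol: names of the form NUP, KPNA, KPNB, IPO or XPO followed by a digit, together with TNPO1, TNPO2, TNPO3, CSE1L, RAN and TPR. Only microarray probe sets that name 1 gene were used, and each gene was represented by its brightest one. The choice gave 53 genes of the 19775 with such a probe set, and 47 of them were bright enough to be tested, of 11865 genes tested in all. By its letters the choice also took in the pseudogenes IPO5P1 and NUP210P1 and the noncoding transcripts NUP50-DT, IPO9-AS1 and NUP133-DT. The 6 untested members were IPO11, IPO9-AS1, NUP133-DT, NUP210L, NUP210P1 and NUP62CL, and when tested with no filter on brightness none of them was called at any time.

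The samples came from SK-N-AS, an established human neuroblastoma line, and 28 microarrays were hybridised with their RNA. In the MYCN line (SK-N-AS-tet, MYCN inducible), doxycycline switches on the transcription factor MYCN, and 3 replicates were harvested at each of the times labelled 0, 4, 8, 24, 48, 96 and 192. In the mock line (SKNAS-pcDNA6TR), named for the vector of the tet repressor, 1 array was made at each of the same times, also after doxycycline. Per its title, the series looked for oncogenic networks in neuroblastoma, here those of MYCN. The unit of time is not stated in the labels, nor whether lines are single clones or replicates separate cultures, so the p-values reflect only how far these arrays scatter, and that scatter may be technical. The mock line stands for the drug and the vector, with 1 array per time and no replicate.

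The nuclear pore is a ring of stacked scaffold complexes, the Y complex on either face and the inner ring between them, anchored in the nuclear envelope and filled with proteins rich in phenylalanine and glycine repeats that receptors pass through. Importins bind cargo in the cytoplasm and release it in the nucleus when the small GTPase RAN, loaded with GTP, binds them. Exportins bind cargo together with RAN-GTP and release it in the cytoplasm, where GTP is hydrolysed. MYC proteins are known for raising the output of ribosomes, and ribosome subunits and their proteins cross the pore in both directions.

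MYCN itself, the check of the labels, read 69.4, 79.2 and 103 at time 0 and 3273, 3065 and 3242 at time 192 in the MYCN line, and 1.6 to 3 in the mock arrays. Of 8 mesenchymal neuroblastoma markers 7 were bright enough to be tested, VIM the brightest (4772.2 to 6908 in the MYCN line, 4559 to 5331 in the mock line). NOTCH2 was too dim (at most 23.8 and 11.9). TWIST1 was lower in the MYCN line (346 to 1000.5) than in the mock line (1084 to 1682), and the ranges of the other mesenchymal markers overlapped. The noradrenergic markers were mixed: the enzymes TH and DBH read at most 6.6 and 8.7, and the transcription factor GATA3 read 231 to 458 in the MYCN line and 752 to 880 in the mock line, GATA2 67.8 to 226 and 513 to 646, and ISL1 97.1 to 182 and 378 to 447. The lines were not alike at any time: PHOX2A read 1.2 to 15.4 in the MYCN line and 582 to 1133 in the mock line, and the leukocyte marker PTPRC 1 to 36.2 and 198 to 262. Summed over 8 noradrenergic markers the level was 504 to 767 in the MYCN line and 2526 to 3209 in the mock line, over 8 mesenchymal markers 8818 to 12439.9 and 8515 to 9760.0, and over 3 leukocyte markers 7.1 to 41.3 and 213 to 275. VIM was the largest part of the mesenchymal sum. PTPRC made most of the leukocyte sum in the mock line, where CD3E and CD14 each read at most 15.9. The sum of 4 epithelial markers was 2056 to 3681 and 1952 to 3886, most of it KRT18 (1939 to 3548 and 1846 to 3807), with KRT8 at 59.7 to 144 and EPCAM at most 9 and CDH1 at most 5.4 in any array. The sum of 3 endothelial markers was 46.5 to 137 and 32.7 to 66.6, most of it PECAM1, with CDH5 at most 3.2, and that of 3 Schwann cell markers 7.1 to 40.6 and 13.5 to 30.9. The spiked control bioD split the arrays into 2 sets: replicates 1 and 2 of the MYCN line (1558 to 1945) and replicate 3 with the mock line (2231 to 2548). In such bulk samples, fewer cells of a type and less RNA per cell cannot be told apart. Values below are array signals on a linear scale, changes are differences in log2 signal, and a gene was called where its limma p, adjusted over 11865 genes, was under 0.05.

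MYC proteins bind the E-box CACGTG, so the promoters of the members were searched for these letters, which read alike on both strands. RefSeq promoters (GRCh38.p14, 250 bases before to 50 after the start of the gene) were matched for 46 of the 53 members. The letters stood in 8 of the 46 (17.4%), beside 2030 of all 27305 promoters in the table (7.43%) and 1407 of 15843 promoters of protein-coding genes (8.88%). Of 21 matched members that rose at any time 3 held them (14.3%): IPO4, KPNA3 and NUP50. Of 20 matched members tested that did not, 5 did (25%): RAN, IPO7, TNPO2, NUP188 and NUP50-DT. A match describes letters and is not evidence of binding. The stretches around the E-box are shown for the 3 members that rose and for RAN and IPO7, which hold the same letters and were not called. The capitals mark the E-box, and each runs 5′ to 3′ along the strand of the gene.
IPO4: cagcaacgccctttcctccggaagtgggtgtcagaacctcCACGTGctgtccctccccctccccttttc
KPNA3: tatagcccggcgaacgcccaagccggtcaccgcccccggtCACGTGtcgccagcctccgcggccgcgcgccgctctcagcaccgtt
NUP50: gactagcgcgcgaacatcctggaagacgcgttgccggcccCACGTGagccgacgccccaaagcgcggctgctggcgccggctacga
RAN: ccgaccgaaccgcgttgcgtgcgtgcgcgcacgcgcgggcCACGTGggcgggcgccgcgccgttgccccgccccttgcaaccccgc
IPO7: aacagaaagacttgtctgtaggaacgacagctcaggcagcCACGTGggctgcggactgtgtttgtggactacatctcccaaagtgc
In GRCh38.p14 these lie at chr14:24188817-24188885, minus strand (E-box starting 29 bases before the gene), chr13:49792703-49792788, minus strand (66 bases before), chr22:45163711-45163796, plus strand (174 bases before), chr12:130871924-130872009, plus strand (102 bases before) and chr11:9384474-9384559, plus strand (138 bases before). NUP50 and NUP50-DT start back to back, and the E-box of the NUP50 stretch is the match counted for NUP50-DT.

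After induction the transport genes rose in part, late and by modest amounts, and 1 fell. No member was called at time 4 or time 8 (limma). Of all tested genes 0.00843% were called higher and 0% lower at time 4, and 0.59% and 0.177% at time 8. At an unadjusted p under 0.05, 2 members were up and 0 down at time 4, and 4 up and 0 down at time 8. The share of all genes at an unadjusted p was not counted, here or below. At time 24, 5 of 47 were called higher and 0 lower, beside 3.91% and 3.27% of all genes. The count higher was 11 at time 48 (7.04% of all genes), 15 at time 96 (10.3%) and 22 at time 192 (11.6%), which is 46.8% of the members tested. Without a term for the replicate number (a replicate block) NUP210, at time 192, was the only member called lower at any time, and with it IPO9 and TPR were also lower there. At that time 14.1% of all genes were lower without the block, beside 0 members at times 48 (7.67%) and 96 (13.2%). In the F-test over all 6 times 18 of 47 were called, beside 25.4% of all genes. These comparisons share the arrays of time 0, so the counts of different times are not independent.

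The size of the shift was small. The median change of the 47 members went from 0.04 at times 4 and 8 through 0.13 (time 24), 0.14 (time 48) and 0.19 (time 96) to 0.22 at time 192, while the median of all genes stayed between -0.03 and -0.02. The 22 members called higher at time 192 had risen by 0.21 to 0.53 on the log2 scale (16.0% to 44.4%), with a median of 0.39. In the single mock arrays, the median of the same 47 differed from time 0 by -0.04, -0.02, -0.01, -0.06, -0.05 and -0.14 in order of time. The 3 arrays of time 192 all lay above the 3 of time 0 for 24 members and all below for 1, beside 16.5% and 19.6% of all genes. Of the 22 called higher, 21 were among the 24, and NUP43 overlapped.

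**Figure D1:**
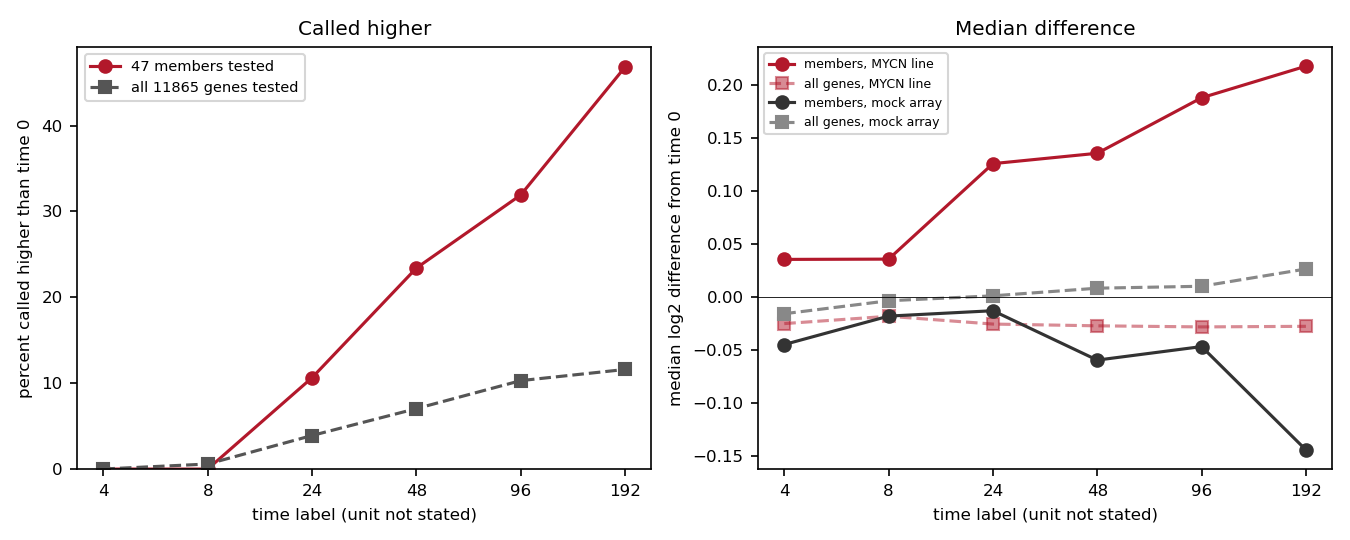
Left, percent of the 47 members and of all 11865 genes called higher than time 0 in the MYCN line (limma, adjusted p under 0.05) at each time label. Right, median log2 difference from time 0 of members and of all genes, in the MYCN line (3 arrays per time) and in the mock line (1 array per time): the members' median rises to 0.22 in the MYCN line and falls to -0.14 in the mock line, while both medians of all genes stay between -0.03 and 0.03.

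The counts depended on single replicates. Without replicate 2 at all times, 3 members were called higher at time 192 and without replicate 1, 8, against 15 without replicate 3, which is also the count within set 1. All genes called there in either direction fell from 3056 to 1327 without replicate 2 and to 1543 without replicate 1, and were 2972 without replicate 3. Leaving out 1 array, the count at time 192 fell to 9 without the time 192 array of replicate 1, to 11 without that of replicate 2 and to 12 without the time 0 array of replicate 3. At time 96 the count was 2 without replicate 2 and 9 without replicate 1, and at time 48 it was 0 without either. All genes called fell at time 96 from 2779 to 787 without replicate 2 and 1449 without replicate 1, and at time 48 from 1745 to 241 and 359. At time 48 it was also 6 without the time 48 array of replicate 1, and 7 without that of replicate 2 or the time 0 array of replicate 3. At time 24 it was 0 without replicate 1 or 2 and 1 without replicate 3, and 0, 1 and 2 without the time 24 array of replicate 3, 1 and 2, with 2 also without the time 0 array of replicate 2 or 3. All genes called at time 24 fell from 852 to 195 without replicate 1, 164 without replicate 2 and 656 without replicate 3. Without 1 array of the MYCN line, all genes called were 429 to 726 at time 24, 940 to 2247 at time 48 and 2276 to 2903 at time 192. The F-test called 2 members without replicate 1 and 0 without replicate 2, and no F-test count over all genes was made for these fits. Replicate numbers pair the arrays at time 192, and with the pairing as a block 25 members were higher and 3 lower there, beside 4159 of all genes called in either direction. NUP58, NUP133 and NUP205 were higher there and IPO9 and TPR lower in the blocked fit alone. Setting the medians of all arrays equal, which moved the median of all genes at time 192 from -0.03 to 0.08, left 12 members higher, beside 1381 of all genes higher against 1380 without it. The members' median change there went from 0.22 to 0.32, so fewer members were called though their median change did not shrink.

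**Figure D2:**
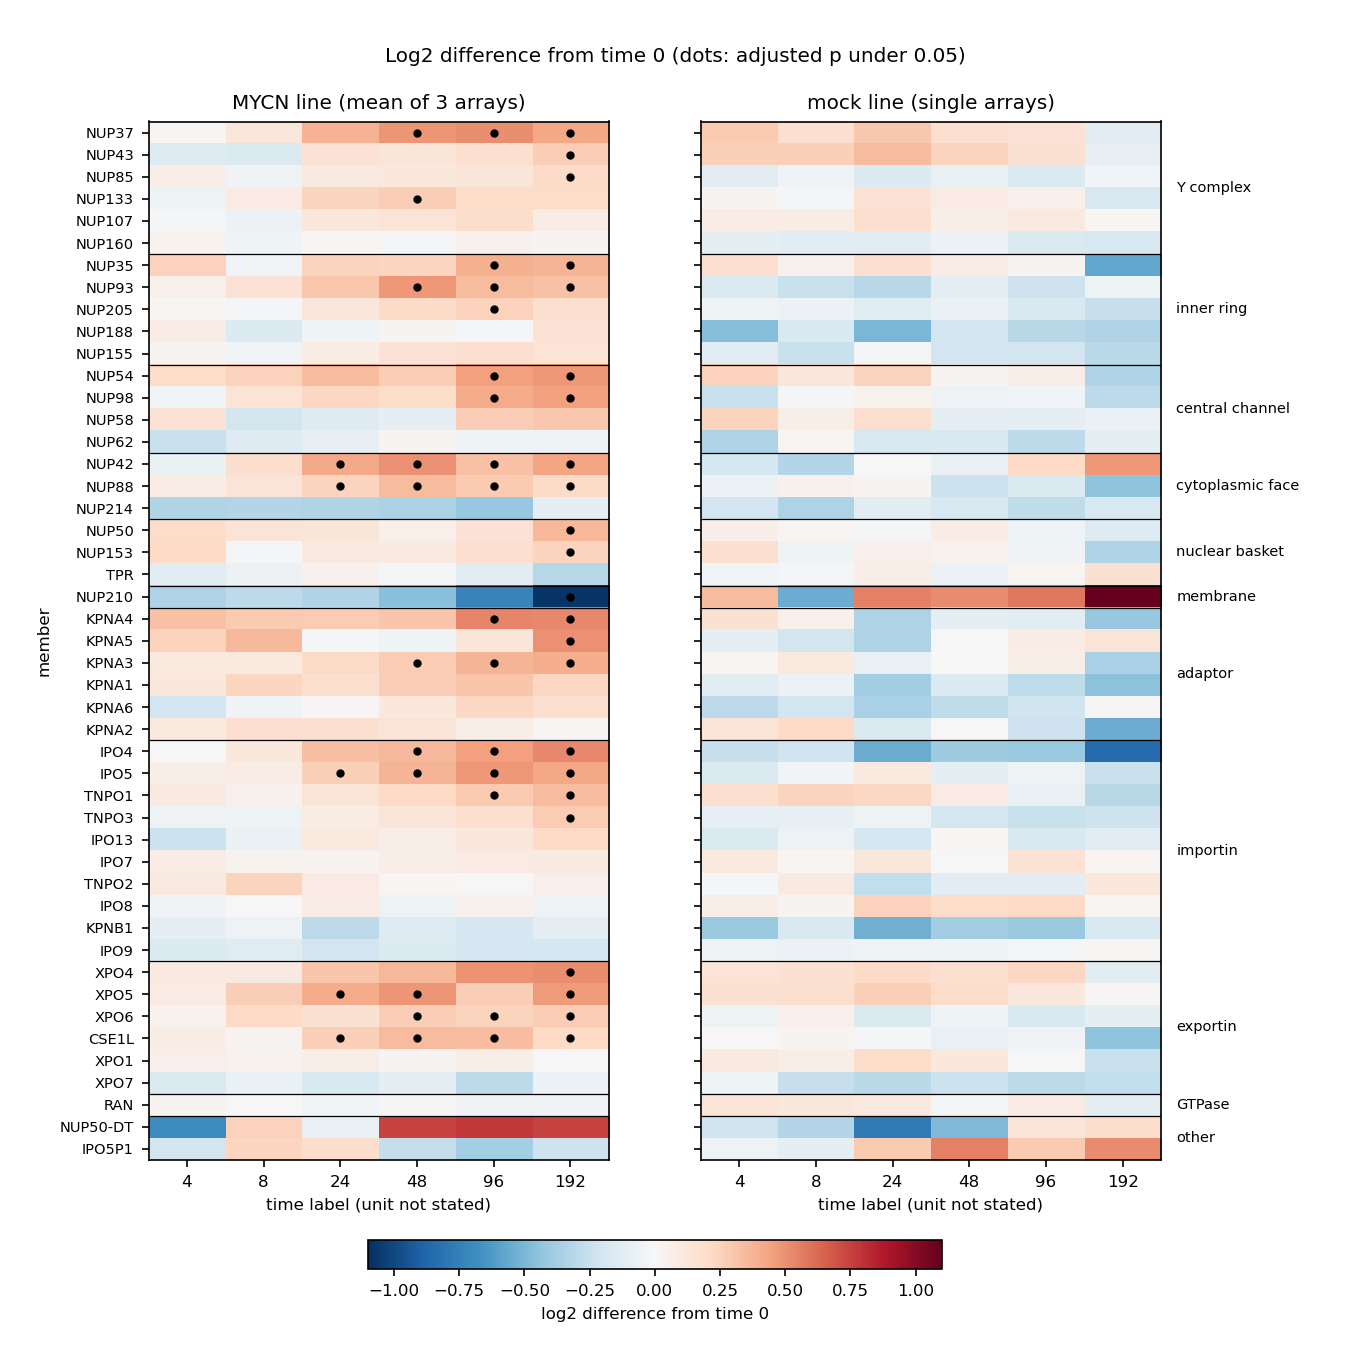
Log2 difference from time 0 for each of the 47 members tested (rows, grouped by role and ordered by the change at time 192) at 6 time labels (columns), in the MYCN line as the mean of 3 arrays and in the mock line as single arrays, with dots where limma's adjusted p was under 0.05. Dots spread from 5 members at time 24 to 23 at time 192, 22 of them red, and NUP210 is the only blue one.

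RAN, the centre of the cycle, was called at no time. The RAN probe set read 5603, 5402 and 5521 in replicates 1, 2 and 3 before induction, 5471, 5304 and 6177 at time 4 and 5362, 5255 and 5946 by time 8. Later RAN readings were 5609, 4935 and 5692 (time 24), 6075, 5365 and 5274 (time 48), 5534, 5072 and 5444 (time 96) and 5476, 5291 and 5285 (time 192). For RAN the mock arrays read 5062, 5594, 5509, 5453, 5021, 5396 and 4709 in order of time. The arrays of every time overlapped those of time 0. Its change at time 192 was -0.04 (SE 0.07, limma adjusted p = 0.721), with a 95% interval of -0.19 to 0.11.

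The adaptors of the KPNA family (importin alpha) read the classical nuclear localisation signal and hand the cargo to KPNB1. Of 6 tested, 3 rose by time 192: KPNA3, KPNA4 and KPNA5. KPNA3 read 432, 383 and 363 in replicates 1, 2 and 3 before induction, 449, 423 and 397 at time 4 and 419.5, 424 and 424 by time 8. Later KPNA3 readings were 456, 454 and 449 (time 24), 501, 503 and 427 (time 48), 478, 533 and 515 (time 96) and 539, 535 and 478 (time 192). At times 96 and 192 every array lay above all of time 0, while at time 48 1 array overlapped. The change of KPNA3 was 0.28 (SE 0.09, limma adjusted p = 0.0379) at time 48 and 0.40 (SE 0.09, limma adjusted p = 0.00224) at time 192. For KPNA3 the mock arrays read 295, 300.2, 318, 279, 296, 309 and 231 in order of time. KPNA3 kept the call at time 192 in 18 of 19 alternatives and lost it without replicate 2 (value of 0.36, limma adjusted p of 0.107).

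KPNA4 was called from time 96 and had the largest rise of the 22 at time 192. KPNA4 gave 1070.2, 1236 and 1293 at time 0 in replicates 1, 2 and 3, followed by 1707, 1532 and 1288 (time 4), 1639.6, 1359.7 and 1403 (time 8) and 1463, 1543 and 1348 (time 24). Later arrays of KPNA4 gave 1716, 1361 and 1372 (time 48), 1837, 1892 and 1514 (time 96) and 1932, 1676 and 1589 (time 192). From time 24 on no array overlapped time 0. The change was 0.54 (SE 0.12, limma adjusted p = 0.00315) at time 96 and 0.53 (SE 0.12, limma adjusted p = 0.00303) at time 192, a rise of 44.4%. For KPNA4 the mock arrays read 1090.3, 1222, 1136, 859, 1009, 999 and 817 in order of time. KPNA4 kept the call at time 192 in 17 of 19 alternatives and lost it without replicate 1 or replicate 2 (values of 0.37 to 0.57, limma adjusted p of 0.054 to 0.0652).

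KPNA5 was called at time 192 alone. KPNA5 read 47.5, 53.3 and 48.3 in replicates 1, 2 and 3 before induction, 54, 71 and 53.6 at time 4 and 63.6, 58.4 and 69 by time 8. Later KPNA5 readings were 56, 48.3 and 44.4 (time 24), 51.5, 38.1 and 56.2 (time 48), 57.5, 49.9 and 56.3 (time 96) and 71.6, 68.4 and 70.6 (time 192). The arrays of times 4, 8 and 192 lay wholly above time 0 and those between overlapped it. The change at time 192 was 0.50 (SE 0.16, limma adjusted p = 0.0293), and at times 4 and 8 it was 0.25 and 0.36, not called. For KPNA5 the mock arrays read 67.7, 62.9, 58.8, 53.4, 67.9, 71.5 and 74.9 in order of time, and a dimmer KPNA5 probe set changed by -0.22 at time 192. KPNA5 kept the call at time 192 in 6 of 18 alternatives and lost it without replicate 1, replicate 2, replicate 3, the time 0 array of replicate 1, the time 0 array of replicate 3, the time 192 array of replicate 1, the time 192 array of replicate 2 or the time 192 array of replicate 3 (values of 0.45 to 0.57, limma adjusted p of 0.0558 to 0.24). For KPNA5 it also ended with all probe sets of the gene averaged, no filter on dim genes, the arrays of set 1 alone or a fit of the arrays of both times alone (adjusted p 0.0636 to 0.749). The other adaptors were not called without the replicate block: at time 192 KPNA1 stood at 0.23, KPNA6 at 0.18 and KPNA2 at 0.02 with an interval of -0.18 to 0.22. With the block KPNA1 was called higher at time 96 (limma adjusted p = 0.0278), where equal numbers do not count as pairs.

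Among the importins, which carry cargo directly or with an adaptor, 4 of 10 were higher at time 192: IPO4, IPO5, TNPO1 and TNPO3. IPO5, which carries ribosomal proteins and histones, held the firmest change of all members. IPO5 gave 551, 521 and 481 at time 0 in replicates 1, 2 and 3, followed by 553, 538 and 544 (time 4), 553, 541 and 545 (time 8) and 597, 635 and 634 (time 24). Later arrays of IPO5 gave 671, 711 and 629.8 (time 48), 714, 707 and 735 (time 96) and 709, 727 and 645 (time 192). From time 24 on all arrays exceeded those of time 0. IPO5 rose by 0.27 (SE 0.07, limma adjusted p = 0.0288) at time 24, 0.37 (SE 0.07, limma adjusted p = 0.00184) at time 48, 0.48 (SE 0.07, limma adjusted p = 0.000117) at time 96 and 0.42 (SE 0.07, limma adjusted p = 0.000277) at time 192. For IPO5 the mock arrays read 478, 427, 467, 514, 448, 459 and 402 in order of time. IPO5 kept the call at time 192 in 19 of 19 alternatives, with values of 0.37 to 0.52. The early call was less firm. IPO5 kept the call at time 24 in 7 of 19 alternatives and lost it without replicate 1, replicate 2, replicate 3, the time 0 array of replicate 2, the time 0 array of replicate 3, the time 24 array of replicate 1, the time 24 array of replicate 2 or the time 24 array of replicate 3 (values of 0.20 to 0.34, limma adjusted p of 0.0535 to 0.281). For IPO5 it also ended with equal array medians, no _s_at or _x_at probe set, the arrays of set 1 alone or a fit of the arrays of both times alone (adjusted p 0.137 to 0.393).

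IPO4, another importer of histones, was called from time 48. IPO4 read 396, 295 and 416 in replicates 1, 2 and 3 before induction, 372, 337 and 386 at time 4 and 385, 357 and 448 by time 8. Later IPO4 readings were 415, 482 and 480.3 (time 24), 482, 428 and 490.1 (time 48), 490.3, 529.9 and 480.0 (time 96) and 544, 507 and 525 (time 192). At time 24 an array still overlapped time 0, and from time 48 on none did. IPO4 rose by 0.35 (SE 0.12, limma adjusted p = 0.0492) at time 48, 0.45 (SE 0.12, limma adjusted p = 0.00837) at time 96 and 0.52 (SE 0.12, limma adjusted p = 0.00254) at time 192. The mock line went the other way: the mock arrays read 371, 312, 319, 254, 283, 278 and 206 in order of time, a slope of -0.11 per time step (limma adjusted p = 0.0506). IPO4 kept the call at time 192 in 19 of 19 alternatives, with values of 0.37 to 0.63.

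Of the 3 transportins, TNPO1 and TNPO3 were called. TNPO1, which carries RNA-binding proteins such as hnRNP A1, read 2496, 2179 and 2094 at time 0 and 3002, 2614 and 2977 at time 192, without overlap, a rise of 0.35 (SE 0.09, limma adjusted p = 0.00834). TNPO1 kept the call at time 192 in 15 of 19 alternatives and lost it without replicate 2 or replicate 3 (values of 0.26 to 0.39, limma adjusted p of 0.0661 to 0.0832). For TNPO1 it also ended with all probe sets of the gene averaged or the arrays of set 1 alone (adjusted p 0.0832 to 0.104). TNPO3, the importer of SR splicing factors, went from 704, 570.4 and 601 to 856, 713 and 712, also without overlap, by 0.28 (SE 0.09, limma adjusted p = 0.031). TNPO3 kept the call at time 192 in 9 of 19 alternatives and lost it without replicate 1, replicate 2, replicate 3, the time 0 array of replicate 2, the time 0 array of replicate 3 or the time 192 array of replicate 1 (values of 0.19 to 0.30, limma adjusted p of 0.069 to 0.246). For TNPO3 it also ended with equal array medians, all probe sets of the gene averaged, the arrays of set 1 alone or a fit of the arrays of both times alone (adjusted p 0.069 to 0.361). TNPO2 stood at 0.06.

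The remaining importins were not called at any time without the replicate block. KPNB1 (importin beta), the partner of the KPNA adaptors, read 4152, 3119.8 and 4493 at time 0 and 3219, 3489.8 and 4205 at time 192, overlapping throughout, at -0.10 with a 95% interval of -0.42 to 0.21. IPO7, whose promoter holds an E-box, went from 1660.3, 1516 and 1605 to 1686, 1718 and 1698 without overlap, a change of 0.09 (SE 0.06, limma adjusted p = 0.277). IPO8, IPO9 and IPO13 stood at -0.06, -0.20 and 0.22 at time 192. With the replicate block IPO9 was called lower at time 192 (limma adjusted p = 0.0328), from 884, 944 and 1019 to 792, 724 and 984. The block also called IPO9 lower at times 24 and 96 (limma adjusted p = 0.0474 and 0.0462), where equal numbers do not count as pairs.

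**Figure D3:**
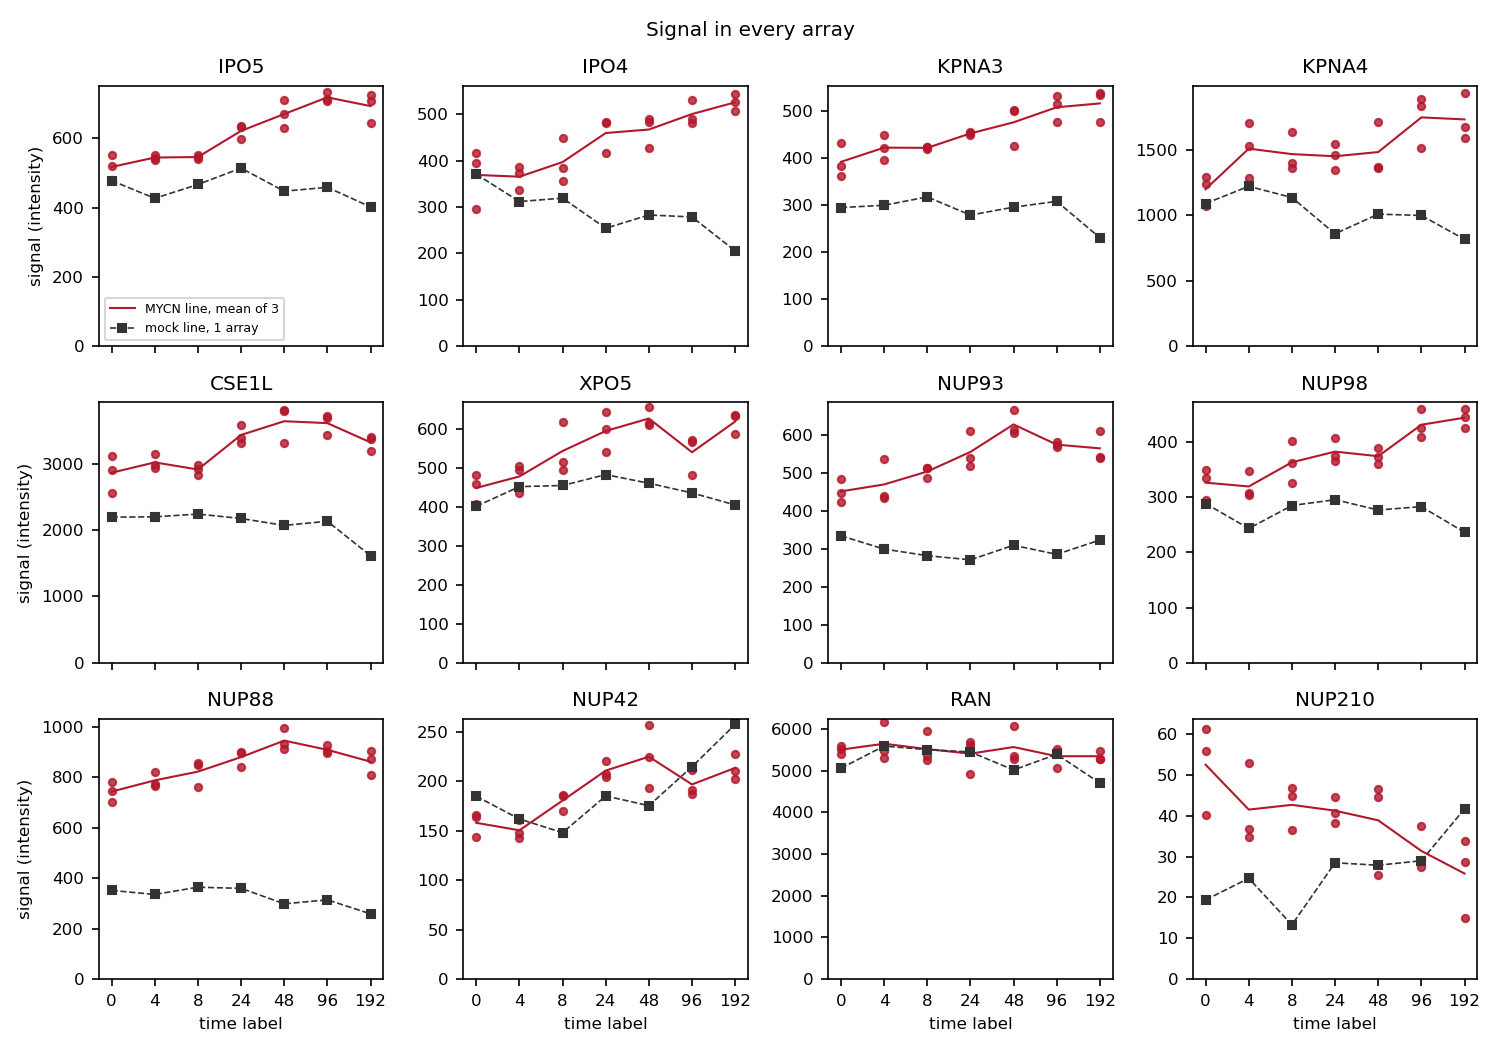
Signal (linear intensity, y axis from 0) of 12 members at the 7 time labels, in each of 3 arrays of the MYCN line (red points, line through the mean) and in the single mock arrays (black squares). IPO5, KPNA3, CSE1L and NUP98 climb in the MYCN line while the mock line ends below its start, NUP42 climbs in both, and RAN stays level.

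Of the 6 exportins, CSE1L, XPO4, XPO5 and XPO6 were higher at time 192, and XPO1 and XPO7 were not called. CSE1L returns the KPNA adaptors to the cytoplasm after import, which every round of classical import requires. CSE1L gave 3122, 2908 and 2562 at time 0 in replicates 1, 2 and 3, followed by 2984, 3142 and 2934 (time 4), 2920.2, 2830.0 and 2988 (time 8) and 3588, 3317 and 3394 (time 24). Later arrays of CSE1L gave 3814, 3798 and 3308 (time 48), 3684, 3436 and 3714 (time 96) and 3403, 3368 and 3193 (time 192). From time 24 on all arrays lay above time 0. CSE1L rose by 0.27 (SE 0.07, limma adjusted p = 0.0256) at time 24, 0.35 (SE 0.07, limma adjusted p = 0.00257) at time 48, 0.34 (SE 0.07, limma adjusted p = 0.00184) at time 96 and 0.22 (SE 0.07, limma adjusted p = 0.0281) at time 192. For CSE1L the mock arrays read 2194, 2199, 2241, 2174, 2069.9, 2132 and 1613 in order of time. CSE1L kept the call at time 192 in 7 of 19 alternatives and lost it without replicate 1, replicate 2, replicate 3, the time 0 array of replicate 3, the time 192 array of replicate 1 or the time 192 array of replicate 2 (values of 0.14 to 0.26, limma adjusted p of 0.0764 to 0.186). For CSE1L it also ended with equal array medians, all probe sets of the gene averaged, no _s_at or _x_at probe set, no filter on dim genes, the arrays of set 1 alone or a fit of the arrays of both times alone (adjusted p 0.0636 to 0.124).

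XPO5, the exporter of microRNA precursors, was called at times 24, 48 and 192 without the replicate block. With the block XPO5 was also called at time 96 (limma adjusted p = 0.0327), where equal numbers do not count as pairs. XPO5 read 481, 407 and 459 in replicates 1, 2 and 3 before induction, 494, 437 and 505 at time 4 and 517, 496 and 619 by time 8. Later XPO5 readings were 542, 600.1 and 645 (time 24), 656, 610.5 and 616 (time 48), 573, 567 and 483 (time 96) and 634, 588 and 638 (time 192). Every array from time 24 on was above all of time 0, at time 96 by a small margin. The change was 0.41 (SE 0.10, limma adjusted p = 0.0172) at time 24 and 0.49 (SE 0.10, limma adjusted p = 0.00311) at time 48. At time 96 the change was 0.27 (SE 0.10, limma adjusted p = 0.0622), which missed the threshold without the block. By time 192 it was 0.47 (SE 0.10, limma adjusted p = 0.00198). For XPO5 the mock arrays read 402, 452, 455, 483, 461, 436 and 405 in order of time. XPO5 kept the call at time 192 in 17 of 18 alternatives and lost it without replicate 2 (value of 0.44, limma adjusted p of 0.0533).

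XPO4, which exports the translation factor eIF5A, had a dimmer probe set. XPO4 gave 129.8, 107 and 95.3 at time 0 in replicates 1, 2 and 3, followed by 140.5, 126 and 93.1 (time 4), 145, 126 and 89.6 (time 8) and 146, 143 and 119.6 (time 24). Later arrays of XPO4 gave 154, 151 and 123 (time 48), 147, 155 and 162 (time 96) and 170.1, 163 and 139.5 (time 192). The arrays of times 96 and 192 did not overlap time 0, and the change was 0.51 (SE 0.18, limma adjusted p = 0.038) at time 192. For XPO4 the mock arrays read 81.7, 90.8, 91.7, 94.8, 92.3, 95.7 and 75.6 in order of time. XPO4 kept the call at time 192 in 10 of 19 alternatives and lost it without replicate 1, replicate 2, the time 0 array of replicate 2, the time 0 array of replicate 3, the time 192 array of replicate 1 or the time 192 array of replicate 2 (values of 0.41 to 0.58, limma adjusted p of 0.093 to 0.31). For XPO4 it also ended with equal array medians, no filter on dim genes or a fit of the arrays of both times alone (adjusted p 0.0581 to 0.0753). XPO6, the exporter of actin with profilin, went from 555, 503 and 554 at time 0 to 655, 662 and 634 at time 192 without overlap, by 0.28 (SE 0.09, limma adjusted p = 0.0225). XPO6 kept the call at time 192 in 12 of 18 alternatives and lost it without replicate 1, replicate 2, the time 0 array of replicate 2, the time 192 array of replicate 1 or the time 192 array of replicate 2 (values of 0.22 to 0.30, limma adjusted p of 0.0594 to 0.203). For XPO6 it also ended with a fit of the arrays of both times alone (adjusted p 0.0958).

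XPO1 (CRM1), the general exporter of proteins with leucine-rich signals and of ribosomal subunits, read 2302, 2213 and 2201 at time 0 and 2485, 2176 and 2102 at time 192. These arrays overlapped, and the change was 0.01 (SE 0.07, limma adjusted p = 0.962) with a 95% interval of -0.14 to 0.16. XPO7 stood at -0.06.

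In the pore itself, the Y complex is the outer scaffold on both faces. Of its 6 members tested 3 were higher at time 192: NUP37, NUP43 and NUP85. NUP43 read 506, 562 and 485 in replicates 1, 2 and 3 before induction, 475, 475 and 452 at time 4 and 407, 498 and 487 by time 8. Later NUP43 readings were 593, 562 and 576 (time 24), 587, 547 and 568 (time 48), 599, 597 and 565 (time 96) and 559.5, 655 and 659.5 (time 192). At time 192 the lowest array fell just under the highest of time 0. NUP43 rose by 0.27 (SE 0.09, limma adjusted p = 0.0289), while the mock arrays read 357, 427, 428, 455, 423, 401 and 334 in order of time. NUP43 kept the call at time 192 in 9 of 19 alternatives and lost it without replicate 1, replicate 2, replicate 3, the time 0 array of replicate 1, the time 0 array of replicate 3, the time 192 array of replicate 2 or the time 192 array of replicate 3 (values of 0.18 to 0.33, limma adjusted p of 0.0537 to 0.264). For NUP43 it also ended with equal array medians, the arrays of set 1 alone or a fit of the arrays of both times alone (adjusted p 0.0537 to 0.264).

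NUP133, whose loop touches curved membrane, was called at time 48 only without the replicate block. With the block NUP133 was also called at times 24, 96 and 192 (limma adjusted p = 0.0281, 0.0341 and 0.0347). At times 24 and 96 equal numbers do not count as pairs. NUP133 gave 368, 358 and 344 at time 0 in replicates 1, 2 and 3, followed by 333, 352 and 341 (time 4), 385, 383 and 368 (time 8) and 431, 432 and 403 (time 24). Later arrays of NUP133 gave 452, 395 and 444 (time 48), 396, 421 and 416 (time 96) and 425, 416 and 389.8 (time 192). From time 24 on no array overlapped time 0, although without the block the change was called once, with 0.27 (SE 0.08, limma adjusted p = 0.0218) at time 48 beside 0.20 (SE 0.08, limma adjusted p = 0.0565) at time 192. For NUP133 the mock arrays read 451, 461, 447, 503, 481, 468 and 399 in order of time. NUP133 kept the call at time 48 in 8 of 18 alternatives and lost it without replicate 1, replicate 2, replicate 3, the time 0 array of replicate 3, the time 48 array of replicate 1 or the time 48 array of replicate 3 (values of 0.22 to 0.33, limma adjusted p of 0.0545 to 0.246). For NUP133 it also ended with equal array medians, all probe sets of the gene averaged, the arrays of set 1 alone or a fit of the arrays of both times alone (adjusted p 0.116 to 0.19).

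NUP37 had the largest change in the Y complex, from 780.5, 779 and 587 at time 0 to 1025, 990.4 and 856 at time 192 without overlap, 0.43 (SE 0.14, limma adjusted p = 0.0332). NUP37 kept the call at time 192 in 12 of 19 alternatives and lost it without replicate 1, replicate 2, the time 0 array of replicate 3, the time 192 array of replicate 1 or the time 192 array of replicate 2 (values of 0.29 to 0.47, limma adjusted p of 0.0908 to 0.179). For NUP37 it also ended with equal array medians or a fit of the arrays of both times alone (adjusted p 0.0536 to 0.0895). NUP85 went from 909.5, 782 and 896 to 983, 1036 and 975, also without overlap, by 0.21 (SE 0.07, limma adjusted p = 0.0388). NUP85 kept the call at time 192 in 10 of 19 alternatives and lost it without replicate 1, replicate 2, the time 0 array of replicate 2, the time 192 array of replicate 1, the time 192 array of replicate 2 or the time 192 array of replicate 3 (values of 0.12 to 0.26, limma adjusted p of 0.0518 to 0.512). For NUP85 it also ended with equal array medians, no filter on dim genes or a fit of the arrays of both times alone (adjusted p 0.0636 to 0.175). NUP107 and NUP160 stood at 0.08 and 0.03 at time 192. With the replicate block NUP107 was called higher at time 96 (limma adjusted p = 0.0116), where equal numbers do not count as pairs. Dimmer NUP160 probe sets above the filter changed by -0.45 and -0.98 at time 192, so the level value of NUP160 holds for its brightest probe set.

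The inner ring links the scaffold to the channel, and 2 of its 5 members, NUP35 and NUP93, were higher at time 192. NUP93 joins the ring to the channel proteins. NUP93 read 423, 446 and 485 in replicates 1, 2 and 3 before induction, 439.9, 433 and 535 at time 4 and 487, 512 and 512 by time 8. Later NUP93 readings were 517, 539 and 609 (time 24), 605, 666 and 612 (time 48), 574, 580.2 and 568 (time 96) and 611, 539 and 543 (time 192). All arrays from time 24 on exceeded time 0. NUP93 rose by 0.48 (SE 0.09, limma adjusted p = 0.00174) at time 48, 0.35 (SE 0.09, limma adjusted p = 0.00889) at time 96 and 0.32 (SE 0.09, limma adjusted p = 0.013) at time 192. For NUP93 the mock arrays read 334, 299, 282, 271, 309, 285 and 323 in order of time. NUP93 kept the call at time 192 in 13 of 19 alternatives and lost it without replicate 1, replicate 2, the time 0 array of replicate 1 or the time 192 array of replicate 1 (values of 0.22 to 0.35, limma adjusted p of 0.0577 to 0.269). For NUP93 it also ended with all probe sets of the gene averaged or a fit of the arrays of both times alone (adjusted p 0.0808 to 0.734).

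NUP205, a large scaffold protein of the ring, was called at time 96 only without the replicate block. With the block NUP205 was also called at times 48 and 192 (limma adjusted p = 0.0243 and 0.0404). At time 48 equal numbers do not count as pairs. NUP205 gave 959.9, 845 and 879 at time 0 in replicates 1, 2 and 3, followed by 941, 885 and 891 (time 4), 869.8, 855 and 913 (time 8) and 968, 927 and 1032 (time 24). Later arrays of NUP205 gave 1054, 1005 and 1049 (time 48), 988, 1126 and 1087 (time 96) and 1077, 950.4 and 1013 (time 192). Times 48 and 96 did not overlap time 0, and 1 array of time 192 did. The change was 0.25 (SE 0.07, limma adjusted p = 0.0158) at time 96 and 0.18 (SE 0.07, limma adjusted p = 0.0767) at time 192. For NUP205 the mock arrays read 935, 902, 894, 854, 889, 830.5 and 783 in order of time. NUP205 kept the call at time 96 in 11 of 19 alternatives and lost it without replicate 2, replicate 3, the time 0 array of replicate 2 or the time 96 array of replicate 2 (values of 0.17 to 0.23, limma adjusted p of 0.0716 to 0.309). For NUP205 it also ended with equal array medians, all probe sets of the gene averaged, the arrays of set 1 alone or a fit of the arrays of both times alone (adjusted p 0.0536 to 0.278).

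NUP35, which touches the membrane, went from 796, 652 and 610.5 at time 0 to 899.7, 944 and 809 at time 192, without overlap, by 0.37 (SE 0.13, limma adjusted p = 0.0348). NUP35 kept the call at time 192 in 10 of 19 alternatives and lost it without replicate 1, replicate 2, the time 0 array of replicate 2, the time 0 array of replicate 3, the time 192 array of replicate 1 or the time 192 array of replicate 2 (values of 0.29 to 0.47, limma adjusted p of 0.0588 to 0.34). For NUP35 it also ended with equal array medians, no filter on dim genes or a fit of the arrays of both times alone (adjusted p 0.0516 to 0.104). NUP155 and NUP188 stood at 0.15 and 0.16 at time 192. With the replicate block NUP155 was called higher at time 96 (limma adjusted p = 0.032), where equal numbers do not count as pairs.

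The central channel is lined by proteins with phenylalanine and glycine repeats, and NUP54 and NUP98 of 4 tested were higher at time 192. NUP98 lies on both faces. NUP98 read 349, 334 and 296 in replicates 1, 2 and 3 before induction, 347, 304 and 307 at time 4 and 402, 362 and 327 by time 8. Later NUP98 readings were 366, 408 and 375 (time 24), 361, 374 and 389 (time 48), 425, 461 and 409 (time 96) and 446, 427 and 461 (time 192). From time 24 on no array overlapped time 0. NUP98 rose by 0.40 (SE 0.09, limma adjusted p = 0.00404) at time 96 and 0.45 (SE 0.09, limma adjusted p = 0.00156) at time 192. For NUP98 the mock arrays read 289, 244, 285, 296, 277, 283 and 237 in order of time. NUP98 kept the call at time 192 in 18 of 18 alternatives, with values of 0.35 to 0.55.

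NUP54 forms a trimer with NUP58 and NUP62. NUP54 gave 523, 450.4 and 422 at time 0 in replicates 1, 2 and 3, followed by 499, 609 and 496 (time 4), 573, 589 and 500.4 (time 8) and 661, 590.3 and 521 (time 24). Later arrays of NUP54 gave 657, 545 and 499 (time 48), 688, 580.0 and 635 (time 96) and 718, 669 and 553 (time 192). Times 96 and 192 stood clear of time 0, and times 24 and 48 did not. NUP54 rose by 0.45 (SE 0.13, limma adjusted p = 0.0156) at time 96 and 0.47 (SE 0.13, limma adjusted p = 0.0102) at time 192. For NUP54 the mock arrays read 352, 421, 384, 417, 360.1, 371 and 281 in order of time. NUP54 kept the call at time 192 in 14 of 18 alternatives and lost it without replicate 2, the time 0 array of replicate 3 or the time 192 array of replicate 1 (values of 0.39 to 0.42, limma adjusted p of 0.052 to 0.164). For NUP54 it also ended with all probe sets of the gene averaged (adjusted p 0.224). Its partners were not called, with NUP58 at 0.30 and NUP62 at -0.05 at time 192, but with the replicate block NUP58 was called higher (limma adjusted p = 0.0423).

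On the cytoplasmic face, where exported RNA is released, NUP42 and NUP88 of 3 members were called from time 24 to time 192. NUP42 binds the export factor GLE1. NUP42 read 144, 164 and 166 in replicates 1, 2 and 3 before induction, 143, 160.4 and 148 at time 4 and 186, 170.2 and 186 by time 8. Later NUP42 readings were 208, 204 and 221 (time 24), 257, 224 and 194 (time 48), 191, 188 and 212 (time 96) and 228, 211 and 202 (time 192). From time 24 on all arrays lay above time 0. NUP42 rose by 0.42 (SE 0.11, limma adjusted p = 0.0211) at time 24, 0.50 (SE 0.11, limma adjusted p = 0.00379) at time 48, 0.32 (SE 0.11, limma adjusted p = 0.038) at time 96 and 0.44 (SE 0.11, limma adjusted p = 0.00534) at time 192. The mock line ended higher as well: the mock arrays read 185, 162, 148, 185, 175, 215 and 258 in order of time, a difference of 0.48 at time 192. NUP42 kept the call at time 192 in 15 of 18 alternatives and lost it without replicate 1 or replicate 2 (values of 0.32 to 0.47, limma adjusted p of 0.0805 to 0.146). For NUP42 it also ended with a fit of the arrays of both times alone (adjusted p 0.054).

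NUP88 anchors NUP214. NUP88 gave 781, 745 and 703 at time 0 in replicates 1, 2 and 3, followed by 774, 822 and 766 (time 4), 848, 857 and 761 (time 8) and 841, 901 and 896 (time 24). Later arrays of NUP88 gave 929.5, 995 and 910.2 (time 48), 895, 903 and 927 (time 96) and 905, 871 and 808 (time 192). No array from time 24 on overlapped time 0. NUP88 rose by 0.24 (SE 0.07, limma adjusted p = 0.0416) at time 24, 0.35 (SE 0.07, limma adjusted p = 0.00273) at time 48, 0.29 (SE 0.07, limma adjusted p = 0.00578) at time 96 and 0.21 (SE 0.07, limma adjusted p = 0.0325) at time 192. For NUP88 the mock arrays read 351, 335, 364, 359, 298, 314 and 258 in order of time. NUP88 kept the call at time 192 in 6 of 18 alternatives and lost it without replicate 1, replicate 2, replicate 3, the time 0 array of replicate 2, the time 0 array of replicate 3, the time 192 array of replicate 1 or the time 192 array of replicate 2 (values of 0.17 to 0.22, limma adjusted p of 0.061 to 0.231). For NUP88 it also ended with equal array medians, all probe sets of the gene averaged, no filter on dim genes, the arrays of set 1 alone or a fit of the arrays of both times alone (adjusted p 0.0535 to 0.9). NUP214, its partner, stood at -0.42 at time 96 (limma adjusted p = 0.0617) and -0.10 at time 192. With the replicate block NUP214 was called lower at time 96 (limma adjusted p = 0.0335), where equal numbers do not count as pairs. Other bright probe sets of NUP214 changed by 0.22 and -0.48 at time 192, so its values hold for its brightest probe set.

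In the nuclear basket, the filaments on the nuclear side, NUP153 and NUP50 were called at time 192 and TPR was not. NUP153 read 1107, 902 and 1013 in replicates 1, 2 and 3 before induction, 1251, 1129 and 1138 at time 4 and 1009, 947 and 1021 by time 8. Later NUP153 readings were 1038, 1096 and 1099.6 (time 24), 1104, 1025 and 1097 (time 48), 1181, 1158 and 1086 (time 96) and 1194, 1206 and 1163 (time 192). The arrays of times 4 and 192 lay wholly above time 0, and those of the times between did not. The change was 0.22 (SE 0.07, limma adjusted p = 0.572) at time 4 and 0.24 (SE 0.07, limma adjusted p = 0.02) at time 192. For NUP153 the mock arrays read 890.5, 1011, 859, 924, 917, 869 and 709.5 in order of time. NUP153 kept the call at time 192 in 10 of 19 alternatives and lost it without replicate 2, replicate 3, the time 0 array of replicate 2, the time 192 array of replicate 1 or the time 192 array of replicate 2 (values of 0.15 to 0.26, limma adjusted p of 0.0539 to 0.331). For NUP153 it also ended with equal array medians, all probe sets of the gene averaged, the arrays of set 1 alone or a fit of the arrays of both times alone (adjusted p 0.064 to 0.142).

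NUP50, a partner of NUP153 that helps to release imported cargo, has an E-box in its promoter stretch above. NUP50 gave 362, 351 and 296 at time 0 in replicates 1, 2 and 3, followed by 408, 400.5 and 352 (time 4), 405, 391 and 322 (time 8) and 389, 384 and 331 (time 24). Later arrays of NUP50 gave 389, 330.2 and 329 (time 48), 416, 376 and 334 (time 96) and 458, 444 and 392 (time 192). The time 192 arrays did not overlap time 0, and the change was 0.36 (SE 0.12, limma adjusted p = 0.0297). For NUP50 the mock arrays read 316, 329.8, 321, 313, 334, 306 and 286 in order of time. NUP50 kept the call at time 192 in 11 of 19 alternatives and lost it without replicate 1, replicate 2, the time 0 array of replicate 3, the time 192 array of replicate 1 or the time 192 array of replicate 2 (values of 0.27 to 0.37, limma adjusted p of 0.0836 to 0.213). For NUP50 it also ended with equal array medians, all probe sets of the gene averaged or a fit of the arrays of both times alone (adjusted p 0.085 to 0.52). TPR, which forms the basket filaments, stood at -0.31, with replicates of 549, 718 and 1045 at time 192 against 818, 939 and 1021 at time 0. With the replicate block TPR was called lower (limma adjusted p = 0.029), while replicate 3 rose.

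The membrane protein NUP210 (gp210), which marks some differentiated cell types, was the exception. NUP210 read 40.3, 61.4 and 55.9 in replicates 1, 2 and 3 before induction, 34.9, 53 and 36.7 at time 4 and 36.5, 44.8 and 46.8 by time 8. Later NUP210 readings were 44.7, 38.3 and 40.8 (time 24), 25.6, 44.5 and 46.6 (time 48), 29.2, 27.5 and 37.5 (time 96) and 15, 33.8 and 28.8 (time 192). Times 96 and 192 lay wholly below time 0. At time 96 NUP210 was called lower with the replicate block alone (limma adjusted p = 0.0201), where equal numbers do not count as pairs. NUP210 fell by 1.08 at time 192 (SE 0.29, limma adjusted p = 0.0087), from a dim probe set. In the mock line the signal went up: the mock arrays read 19.4, 24.7, 13.3, 28.5, 27.9, 29 and 41.7 in order of time. NUP210 kept the call at time 192 in 15 of 18 alternatives and lost it without replicate 2 or the time 192 array of replicate 1 (values of -1.19 to -0.73, limma adjusted p of 0.0609 to 0.067). For NUP210 it also ended with all probe sets of the gene averaged (adjusted p 0.177).

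The transcripts that the choice took in by letter were dim. NUP50-DT, which runs away from NUP50, read 14.7, 21.7 and 21.3 at time 0 and 30.8, 26.1 and 39.6 at time 192. The change was 0.74 (SE 0.37, limma adjusted p = 0.157), and NUP50-DT was called by the F-test (adjusted p = 0.0271) and at no single time. The pseudogene IPO5P1 read 39.6, 54 and 35.1 at time 0 and 24.7, 36.9 and 51.4 at time 192, at -0.23 (SE 0.31, limma adjusted p = 0.649), and its sequence is near that of IPO5, so a shared signal cannot be told apart.

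Members passed the threshold at different times. Without the replicate block, CSE1L, IPO5, NUP42, NUP88 and XPO5 were first called at time 24. At time 48 came IPO4, KPNA3, NUP133, NUP37, NUP93 and XPO6. KPNA4, NUP205, NUP35, NUP54, NUP98 and TNPO1 followed at time 96, and KPNA5, NUP153, NUP43, NUP50, NUP85, TNPO3 and XPO4 at time 192. A first call is also set by the spread of a gene, and these times were not tested against each other. Between times 48 and 192 no member was called (limma), beside 0.767% of all genes. At an unadjusted p under 0.05, 4 members were up and 1 down, with no such share counted over all genes. In all, 22 of the 47 members were called at no time in the fit without the block. The share of all genes called at no time was not counted, so this number cannot be read as particular to the members.

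In the mock line 0 of 47 members had a called trend over the 7 arrays (limma, adjusted over all genes), beside 3.13% of all genes. At an unadjusted p under 0.05, 10 members fell and 3 rose, and the share of all genes at that threshold was not counted. Slopes are given per time step, counted 0 to 6 in the order of the times. The median slope of the members was 0.04 after MYCN induction and -0.02 in the mock line, beside 0.00 and 0.01 for all genes. Of the 22 members called higher at time 192, 19 (86.4%) were below time 0 in the mock array of time 192, as were 881 of all 1380 genes called higher (63.8%).

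The question whether the lines differ was put to the data as the interaction of line and time step. It was called for 18 members, 17 with the MYCN line above the mock line (11.2% of all genes) and NUP210 with it below (12.8%). IPO4 differed most among the 17, by 0.21 per step (SE 0.03, limma adjusted p = 1.87e-05), followed by KPNA4 at 0.14 per step (SE 0.03, limma adjusted p = 0.00234). IPO4 kept the difference in trend in 20 of 20 alternatives, with values of 0.17 to 0.25. KPNA4 kept the difference in trend in 19 of 20 alternatives. For KPNA4 it ended with time 192 left out of both lines (adjusted p 0.0536). IPO5 differed by 0.11 per step (SE 0.02, limma adjusted p = 0.000749). IPO5 kept the difference in trend in 20 of 20 alternatives, with values of 0.083 to 0.15.

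Of the 17, 14 were also called higher at time 192, and KPNA1, KPNA2 and NUP205 were not. KPNA2 was level in the MYCN line and lower in the mock line (3389 at time 0 and 2317 at time 192), a difference of 0.090 per step (SE 0.03, limma adjusted p = 0.0227). In 16 of the 17 the mock slope was below 0 and the MYCN slope above 0, and in 7 of the 17 the mock fall was larger than the MYCN rise. The 17 were picked by a positive difference, which favours these signs, and the share among all genes called above was not counted. Of all 47 members, 36 had a mock slope below 0 and 36 a MYCN slope above 0. The difference was not called for NUP42 (limma adjusted p = 0.957), nor for KPNA5, NUP43, NUP50, NUP85, NUP93, XPO4 or XPO5, all called higher at time 192.

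The mock array of time 192 had a large part in these counts. Without it 6 members were called above the mock line rather than 17, while leaving out any other mock array gave 14 to 18. All genes called in either direction fell from 2850 to 1295 without it. Its median signal, 20.2, was the highest of the 28 arrays. With time 192 left out of both lines, an alternative chosen after seeing the data, 7 were above and 0 below, beside 1456 of all genes called. Since the mock line shares a set with replicate 3 alone, the interaction was also fitted within set 2, where 16 were above and 1 below. KPNA1, NUP153 and XPO6 lost the call there, so the 16 are not all among the 17. For all genes the count within set 2 is not given here. The part that the line's baseline markers have in these differences was not tested.

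**Figure D4:**
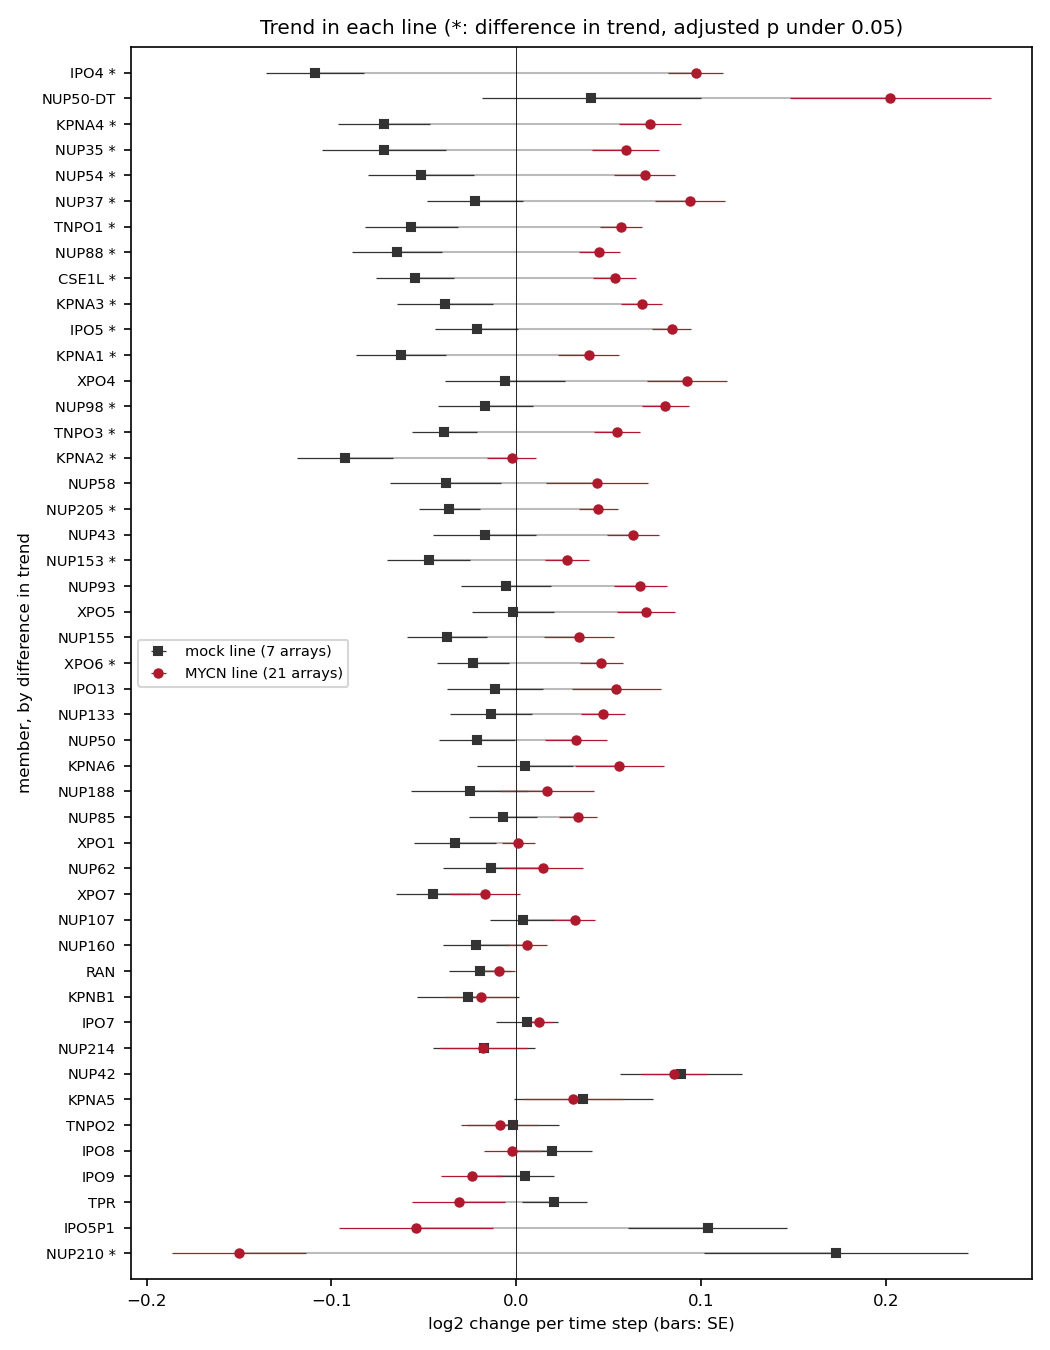
Slope of log2 signal per time step for each of the 47 members (rows, ordered by the difference between lines) in the MYCN line (red, 21 arrays) and the mock line (black, 7 arrays), with bars of 1 SE and an asterisk where the difference was called. IPO4 has slopes on opposite sides of 0, the slopes of NUP42 coincide, and NUP210 shows the reverse order.

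Other genes of nuclear transport, 34 in all and all tested, were read beside the members: at time 192 5 were higher (11.6% of all genes) and 1 lower (14.1%), with a median change of 0.07. The firmest was XPOT, the exporter of tRNA. XPOT read 1279, 1129 and 1088 in replicates 1, 2 and 3 before induction, 1267, 1320.5 and 1179.5 at time 4 and 1234, 1281 and 1175 by time 8. Later XPOT readings were 1602, 1432 and 1499.5 (time 24), 1588, 1493 and 1511 (time 48), 1455, 1578 and 1693 (time 96) and 1669, 1595 and 1647 (time 192). Its arrays from time 24 to time 192 did not overlap time 0. XPOT rose by 0.38 (SE 0.07, limma adjusted p = 0.00373) at time 24 and 0.49 (SE 0.07, limma adjusted p = 8.03e-05) at time 192, while the mock arrays read 1327, 1343, 1345, 1337, 1306, 1270.1 and 1086 in order of time. The difference in trend was 0.13 per step (SE 0.02, limma adjusted p = 0.0001).

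In the list of the Ran cycle 1 of 6 was called at time 192, RANBP2, the large protein of the cytoplasmic filaments (602, 597 and 693 at time 0, 693, 709 and 889 at time 192, overlapping by 1 array). Its change was 0.27 (SE 0.09, limma adjusted p = 0.0388). RANGAP1, which makes RAN hydrolyse GTP in the cytoplasm, stood at 0.06 (SE 0.13, limma adjusted p = 0.778). RANBP1, its helper, went from 1814, 1783 and 1784 to 2002, 2014 and 1823 without overlap, a change of 0.12 (SE 0.07, limma adjusted p = 0.213), and differed from the mock line in trend by 0.077 per step (SE 0.02, limma adjusted p = 0.0034).

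Among 9 further pore proteins, AHCTF1 (ELYS), which seeds new pores on chromatin, and SEH1L of the Y complex were higher at time 192. AHCTF1 read 436, 403 and 472 at time 0 and 538, 579 and 512 at time 192, apart from each other, and rose by 0.31 (SE 0.10, limma adjusted p = 0.0215). SEH1L read 1208, 1031 and 898 and 1367, 1333 and 1202, overlapping by 1 array, and rose by 0.32 (SE 0.12, limma adjusted p = 0.0481). NDC1, a membrane anchor of the pore, was called at times 24 and 48, with a change of 0.36 (SE 0.10, limma adjusted p = 0.0247) at time 48, and stood at 0.22 at time 192.

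Of 5 further receptors and adaptors XPOT alone was called at time 192. RANBP17, an importin of low signal, was called at time 96, with a change of 0.60 (SE 0.20, limma adjusted p = 0.0385), and differed by 0.60 in the mock array of that time. SNUPN, the adaptor for spliceosomal particles, stood at -0.18 (SE 0.10, limma adjusted p = 0.184). In the list of mRNA export, 14 tested, THOC1 rose by 0.26 (SE 0.08, limma adjusted p = 0.0291) at time 192. THOC6, of the same THO complex, fell by 0.48 at time 96 (SE 0.12, limma adjusted p = 0.00694), with -0.48 in the mock array of that time, and stood at -0.11 at time 192. The helicase DDX19B, a dim probe set, went from 45.2, 45.9 and 62.2 at time 0 to 15.3, 26.2 and 4.4 at time 192.

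Most genes have several probe sets, which gives a second reading of the same RNA. Of the members called, 16 had another bright probe set, and in 14 of these every bright one changed the same way at time 192. The exceptions were CSE1L, where 1 dimmer probe set stood at -0.02, and KPNA5. IPO5 had 4 other bright probe sets, with changes of 0.37 to 0.55 at time 192, and those of NUP98 stood at 0.40 and 0.59. IPO4 had a single probe set, as had 13 of the 53 members in all. Members not called also have further probe sets, which were not tested. At time 192 every bright probe set of IPO9 (-0.49 to -0.20), TPR (-0.76 to -0.24), IPO8, RAN and IPO5P1 was lower. Every bright one of KPNA1 (0.18 to 0.41), KPNA6 (0.18 to 0.36), KPNA2, IPO7, NUP58 and NUP188 was higher. Those of KPNB1, NUP62, NUP160, NUP214, TNPO2, XPO1 and XPO7 were mixed in sign.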

How the data were processed

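Expression was measured on Affymetrix arrays, 21 of the MYCN line and 7 of the mock line. The authors deposited 1 intensity per probe set and array on a linear scale, made with MAS5 and GCOS per the submitters' processing notes, whose version is not given in the sources used here. In the deposited table the mean intensity after trimming 2% at either end was 100 in every array. No counts exist for arrays, and the number of arrays limits the precision. Of 54675 probe sets 41091 named 1 gene in the platform annotation and were used, 1801 named several and 11777 none; 62 control probe sets, which overlap the last group, were left out. Values of 0 or less (91) became 0.1 before log2. The test was limited to the 11865 genes whose mean log2 signal reached the 40th percentile (3.68, a signal of 12.8).

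Fits used limma 3.58.1 in R 4.3.3, with lmFit and with eBayes set to a trend. The MYCN arrays were fitted together, every later time against time 0 (14 residual degrees of freedom), with an F-test over 6 contrasts. A trend over time steps 0 to 6 was fitted to the mock arrays (5), and the interaction of line and step to all 28 (24). P-values were two-sided, Benjamini-Hochberg adjusted over all genes tested, and called under 0.05. The code was tested on simulated data. Per-array values are given for RAN, for the 2 members of each role with the smallest F-test p, and for the 4 most positive and 4 most negative called changes at time 192; the 3 smallest F-test p-values name the genes of each further list. Members, roles and lists were chosen with earlier results of these data known.

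Deviations of same-numbered arrays from their group means correlated at 0.188 to 0.323 between times 0 and 4, 0.241 to 0.367 for time 8 and 0.129 to 0.226 for time 192, all over 0.1, so equal numbers count as pairs there; at times 24, 48 and 96 the lowest was -0.06, 0.05 and -0.02. Alternatives were equal array medians, quantile normalization, all probe sets averaged, no _s_at or _x_at probe sets, no filter or the 60th percentile, a replicate block, a block of or fits within the 2 sets of arrays, only the arrays of the times compared, log2 time for the step, and leaving out replicates or arrays.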

Additional observations from a re-analysis of the deposited data

Results flagged for a closer look

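The change per time step differed between the lines for 18 members, tested with limma as an interaction between line and step in the 28 arrays (adjusted over all genes). The MYCN line lay above the mock line for 17. Among the adaptors these were KPNA1 (0.10, adjusted p = 0.0189), KPNA2 (0.090, adjusted p = 0.0227), KPNA3 (0.11, adjusted p = 0.00166) and KPNA4 (0.14, adjusted p = 0.00234), in log2 units per step. Among the importins they were IPO4 (0.21, adjusted p = 1.87e-05), IPO5 (0.11, adjusted p = 0.000749), TNPO1 (0.11, adjusted p = 0.00166) and TNPO3 (0.094, adjusted p = 0.00341), and among the exportins CSE1L (0.11, adjusted p = 0.00181) and XPO6 (0.069, adjusted p = 0.0228). The nucleoporins were NUP153 (0.075, adjusted p = 0.0276), NUP205 (0.081, adjusted p = 0.00291), NUP35 (0.13, adjusted p = 0.014), NUP37 (0.12, adjusted p = 0.0238), NUP54 (0.12, adjusted p = 0.00966), NUP88 (0.11, adjusted p = 0.00103) and NUP98 (0.097, adjusted p = 0.00671). NUP210 alone lay below (-0.32, adjusted p = 0.00254), from signals of 15 to 61.4 in the MYCN line and 13.3 to 41.7 in the mock line. Each difference rests on 7 single mock arrays.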

How the results depend on the processing

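No member's called change turned its direction under any alternative run. IPO4, IPO5 and NUP98 kept the call at time 192 under each alternative run, and IPO4, IPO5, NUP205 and TNPO3 the difference in trend. With equal array medians the members called higher were 1, 5, 8 and 12 at times 24, 48, 96 and 192, with 9 by the F-test and 1 with a mock trend. Of all genes 336, 633, 987 and 1381 were then higher, against 464, 835, 1217 and 1380 without it. The members' median change at these times was then 0.20, 0.22, 0.27 and 0.32, against 0.13, 0.14, 0.19 and 0.22. The mean of all probe sets gave 1 lower at time 48, 2 lower at time 192 and 0 below the mock line. Without _s_at and _x_at probe sets 1 was higher at time 24, 5 at time 48 and 2 below the mock line. No filter left 3 higher at time 24. The 60th percentile left NUP210 too dim to be tested, so 0 were lower at time 192 and 0 below the mock line, and it gave 1 mock trend. No call of a member still tested was lost with that filter. With the replicate block 11 were higher and 1 lower at time 24, beside 1773 of all genes called against 852 without it. At time 96 the block gave 23 higher and 3 lower (3922 of all genes against 2779). At time 192 it gave 25 higher and 3 lower (4159 against 3056), and the F-test with it called 28. Equal numbers pair the arrays at time 192, while at times 24 and 96 the arrays share only a number. The block ended no call of a named member. A block of the 2 sets of arrays, which rest on bioD and not on the labels, gave 10 higher at time 24 and 3 lower at times 96 and 192. Within set 1 alone, 1 was higher at time 24 and 2 lower at time 192; set 2 has no replicated time and set 1 no mock array. With only the arrays of the 2 times, 0, 2, 8 and 8 were higher at times 24, 48, 96 and 192. Leaving out a replicate or array, the members higher ranged from 0 to 4 (time 24), 0 to 11 (time 48), 2 to 16 (time 96) and 3 to 20 (time 192), those lower from 0 to 1 at time 96 and 0 to 2 at time 192, the F-test from 0 to 12, those above the mock line from 6 to 20, those below from 1 to 2 and mock trends from 0 to 3. All genes called in either direction ranged from 164 to 726, 241 to 2247, 787 to 2794 and 1327 to 2972 at these times. For the difference in trend they ranged from 1295 to 3291. Without time 192 in both lines, added after seeing the data, 7 were above and 0 below. Under the other settings, counts over all genes are not given here, so those shifts cannot be read as particular to the members. The cause of these shifts was not tested. Dim probe sets such as NUP210 scatter most on the log scale.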

Other observations

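RCC1, which loads RAN with GTP, was singled out after its values were seen. Its MYCN line signal was 508 to 755 for replicates 1 and 2, 161 to 257 for replicate 3 and 87.7 to 122 in the mock line, so the sets of arrays did not overlap at any time. Its change at time 192 was 0.36 (SE 0.65, limma adjusted p = 0.739). Among the 34 further transport genes, 12 differed between the lines in trend, all with the MYCN line above the mock line. Of all genes 11.2% were called above and 12.8% below. The mock slope was below 0 for all 12, a sign that picking by a positive difference favours. PHAX and RAE1 had MYCN slopes below 0 as well, and the rest of the 12 had MYCN slopes above 0. ALYREF, an adaptor of mRNA export, had a MYCN slope of 0.02 per step beside a mock slope of -0.10. How far these 12 depend on the mock array of time 192 was not tested.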
